A study of Homo sapiens with 26 samples.

Results

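The expression of 43 genes of the cellular stress responses was followed by RNA sequencing in TF-1, an established human erythroleukemia line, out of 57773 genes in the count table. They were chosen by symbol, through the Ensembl identifiers of the table, in 3 arms: 22 genes of the ATF4 and amino acid response, 15 of endoplasmic reticulum stress and 6 of heat shock. All 43 were found. Of these, 42 passed the filter on low counts; NUPR1, at 0 to 9 reads per library, did not, and ALDH1L2, at 1 to 13 reads, passed close to the floor and was called in no comparison.

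The study used 2 clones of genotype TET2 -/- (KO), named A12 and F4, and 2 TET2 wild-type clones (WT), named A7 and C4, where TET2 is an enzyme that oxidises 5-methylcytosine in DNA. Cells received 200 nM 5-azacytidine (Aza), a nucleoside that traps DNA methyltransferases and lowers DNA methylation, or the solvent DMSO alone on 3 consecutive days. RNA was taken before treatment, at 72 h and at 264 h after the first dose. Batch 1 held both genotypes in all of these conditions, and batch 2 held only KO clones, in DMSO at T0, 72 h and 264 h; its T0 libraries carry both a T0 and a DMSO label and were kept as a group of their own. Each batch held 1 library of each of its clones per condition, so that a group from a single batch, batch 2 at T0 included, had 2 libraries. The KO groups in DMSO at 72 h and 264 h pooled both batches. They had 3 libraries at 72 h (the batch 1 library of F4 failed quality control) and 4 at 264 h. Both clones of a genotype come from 1 line, so p-values speak for these clones and cultures alone. For Aza, time, batch and clone they measure the spread that remains once mean differences between clones are taken off. Only for KO against WT do they measure the spread between clones.

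Total counts of the 25 libraries used ran from 24992192 to 40187322, and the mitochondrial share from 5.97% to 7.92%. Reads on TET2 were at 23.6 to 46.2 CPM (counts per 1000000 counts of the library) in KO and 21.9 to 29.7 CPM in WT, so that the level of this gene does not check the labels. Of 7 TF-1 markers, 6 were expressed in every library (GATA1, TAL1, CSF2RB, EPOR, KIT and CD34), and the GM-CSF receptor subunit CSF2RA was listed at 0. Among markers of other cells, CD3E, MS4A1, EPCAM and COL1A2 had at most 6 reads in a library, whereas KRT8 and KRT18 were present in every library, KRT18 at 92.5 to 207 CPM. CD3D moved with the clone, at 36.8 to 61.8 CPM in A12, 9.66 to 17.0 CPM in F4 and 0.521 to 4.01 CPM in WT. With Aza at 72 h COL1A1 was at 2.01 to 5.98 CPM (0.382 to 2.25 CPM elsewhere) and KRT8 at 49.7 to 61.3 CPM (29.1 to 50.4 CPM elsewhere). The summed level of the 10 markers of other cells was at 164 to 238 CPM there and 133 to 325 CPM elsewhere. Of the 7 TF-1 markers, TAL1 (357 to 411 against 223 to 285 CPM) and KIT (29.4 to 45.2 against 9.39 to 23.9 CPM) were higher in every Aza library at 72 h than in any other. ALB was at most at 6.56 CPM, and the part of these genes in the results was not tested. The 2 WT libraries taken before treatment went against their clone labels: the difference between A7 and C4 there correlated at -0.497 to -0.447 with the same difference in later conditions, over 3000 variable genes, against 0.432 to 0.488 among the later conditions. The shared model therefore gave them a clone term of their own, and counts that rest on them are given with and without each. The same model joins the batches by 1 batch term, so that a KO difference at 72 h also draws on batch 2 and on how far the batches stand apart at 264 h; values fitted in batch 1 alone are given beside those that this moves most.

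These arms are related branches of how a cell handles stress. In the integrated stress response, kinases such as GCN2 (EIF2AK4, which senses uncharged tRNA) and PERK (EIF2AK3, which senses unfolded protein in the endoplasmic reticulum) slow translation in general while favouring that of the transcription factor ATF4, whose targets supply amino acids, one-carbon units and feedback inhibitors. The unfolded protein response adds the sensors IRE1 (ERN1) and ATF6, and the factor XBP1, which raise chaperones of the endoplasmic reticulum. The heat shock response, driven by HSF1, raises chaperones of the cytosol and nucleus. Gene counts see the RNA of these genes alone: neither the translation of ATF4, nor the splicing of XBP1, nor the phosphorylation of a kinase was measured.

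Promoters of these genes were examined for the sequence elements of the 3 arms, whether or not the gene moved. No link between an element and a change in level was tested. RefSeq windows (GRCh38.p14) from 250 bases before to 50 bases after the start of transcription were matched for 37 of 43 genes. The C/EBP-ATF element bound by ATF4 with a partner, TGATGNAA on either strand, was found in 5 of 17 genes of the ATF4 arm (ATF3, CHAC1, ASNS, SLC3A2 and SLC7A1), in 1 of 15 of the endoplasmic reticulum arm (HERPUD1), and in 3.62% of the 35116 windows in the RefSeq table. The endoplasmic reticulum stress element, CCAAT and CCACG held apart by 9 bases on either strand, was found in 4 of 15 genes of that arm (XBP1, HSPA5, HSP90B1 and CRELD2) and in 0.0769% of windows. A heat shock element, GAANNTTCNNGAA on either strand, was found in none of the 5 heat shock genes with a window and in 0.49% of windows. None of the 37 genes with a window had a match to more than 1 of the 3 elements, and 10 genes with several annotated starts had more than 1 window. The 250 bases before the start follow for the 4 genes that hold the element of their own arm and are followed library by library; capitals mark the letters of the element.
ATF3 (chr1:212565157-212565406, plus strand): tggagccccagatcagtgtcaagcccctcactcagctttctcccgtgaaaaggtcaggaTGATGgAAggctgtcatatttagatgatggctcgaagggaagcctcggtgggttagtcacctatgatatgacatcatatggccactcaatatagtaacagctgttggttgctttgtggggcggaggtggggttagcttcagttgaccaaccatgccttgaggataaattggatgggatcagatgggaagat
CHAC1 (chr15:40953221-40953470, plus strand): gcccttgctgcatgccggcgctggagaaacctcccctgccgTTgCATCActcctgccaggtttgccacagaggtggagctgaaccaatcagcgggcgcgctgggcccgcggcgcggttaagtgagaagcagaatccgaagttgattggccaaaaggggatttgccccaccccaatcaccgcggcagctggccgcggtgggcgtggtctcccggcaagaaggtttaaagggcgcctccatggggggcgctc
XBP1 (chr22:28800570-28800819, minus strand): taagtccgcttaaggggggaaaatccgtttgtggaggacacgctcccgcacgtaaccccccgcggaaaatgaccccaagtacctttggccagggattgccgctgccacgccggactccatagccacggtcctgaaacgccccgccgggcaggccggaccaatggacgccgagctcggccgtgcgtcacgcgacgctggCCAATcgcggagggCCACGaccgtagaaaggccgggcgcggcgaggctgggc
HSP90B1 (chr12:103930160-103930409, plus strand): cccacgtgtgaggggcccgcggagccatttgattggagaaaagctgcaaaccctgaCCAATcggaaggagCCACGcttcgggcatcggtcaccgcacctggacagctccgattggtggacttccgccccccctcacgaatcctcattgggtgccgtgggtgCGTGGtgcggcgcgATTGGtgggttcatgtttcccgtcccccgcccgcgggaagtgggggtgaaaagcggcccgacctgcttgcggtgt
The element of ATF3 lay 191 to 184 bases before its start and that of CHAC1 209 to 202 bases before it. HSP90B1 had a copy at -194 to -176 and another, on the other strand, at -89 to -71, and XBP1 had 1 at -52 to -34.

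Levels differed widely between the genes. Per kilobase of exon, the endoplasmic reticulum chaperones HSPA5 (BiP) and HSP90B1 (GRP94) had the highest median levels over the 25 libraries, at 205 and 189 CPM per kilobase, followed by ATF4 at 175. The factor ATF3 (ENSG00000162772.12, hg19 chromosome 1, 212738676 to 212794119) was at a median of only 0.386 CPM per kilobase, on 18 to 143 reads per library. CHAC1 (ENSG00000128965.7, chromosome 15, 41245160 to 41248710), an enzyme that degrades glutathione, was at 1.65, and DDIT4 (ENSG00000168209.4, chromosome 10, 74033678 to 74035794), an inhibitor of mTORC1, at 10.9 CPM per kilobase. Over the 25 libraries DDIT4 ran from 12.4 to 77.9 CPM, whereas ATF4 itself ran from 396 to 536 CPM.

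**Figure D1:**
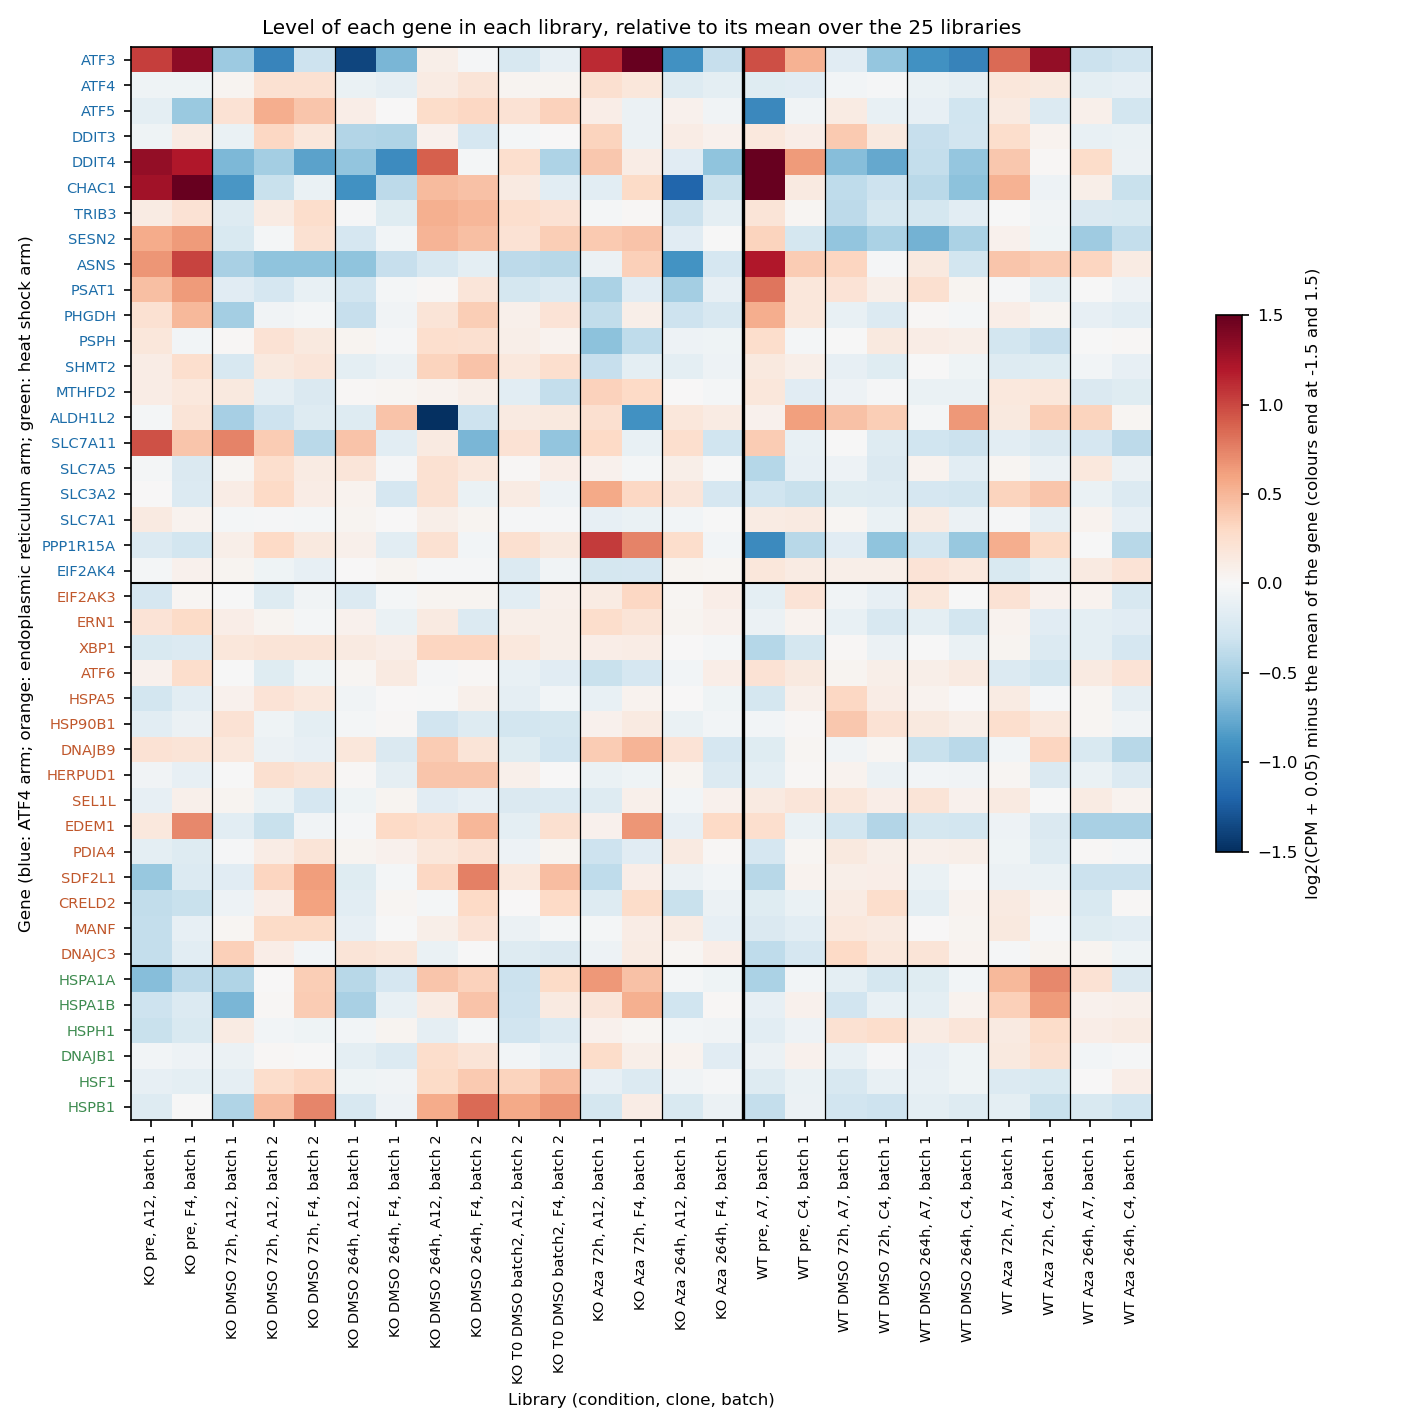
Level of 42 genes (rows, by arm) in 25 libraries (columns, by condition, clone and batch), as log2(CPM + 0.05) minus the mean of the gene. ATF3, DDIT4, CHAC1 and ASNS are red in the KO libraries before treatment and in the WT library labelled A7. In the Aza libraries at 72 h ATF3 is red again and PPP1R15A, not red before treatment, is red. The row of ALDH1L2 rests on 1 to 13 reads.

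Without Aza these genes already differed between harvests. The batch 1 libraries before treatment had received no DMSO, so time in culture and DMSO cannot be told apart in these differences. Between the harvest before treatment and DMSO at 72 h, 10 of 21 genes of the ATF4 arm fell in KO and 11 in WT, with 2 rising in each, while 7 and 8 of 15 genes of the endoplasmic reticulum arm rose and 1 fell in each. Of all genes tested, 9.34% fell and 7.97% rose in KO, and 9.41% fell and 9.49% rose in WT. DDIT4 was at 59.4 CPM in A12 and 54.7 CPM in F4 before treatment, and at 14.9 CPM in A12 in DMSO at 72 h. In DMSO at 264 h in batch 1 it was at 15.8 CPM in A12 and 12.4 CPM in F4. In WT it was at 77.9 CPM in the library labelled A7 and 37.2 CPM in that labelled C4, then at 15.3 and 13.9 CPM at 72 h and at 18.6 and 15.9 CPM at 264 h. Every library before treatment in batch 1 was thus above every DMSO library of batch 1. CHAC1 showed the same order in KO, with 9.10 and 11.4 CPM before treatment against 2.03 CPM at 72 h and 1.98 and 2.86 CPM at 264 h. In WT it stood at 12.0 CPM in the library labelled A7 but 4.14 CPM in that labelled C4, with 2.89 and 3.02 CPM at 72 h. ATF3 was at 3.82 and 4.71 CPM in KO and 3.61 and 2.65 CPM in WT before treatment, above the 0.674 to 1.61 CPM of the batch 1 DMSO libraries.

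In KO, 10 of 42 genes were higher and 12 lower in DMSO at 72 h than before treatment by edgeR's quasi-likelihood test (adjusted p under 0.05), where 7.97% of the 19275 genes tested were higher and 9.34% lower. By arm, 2 were higher and 10 lower of 21 in the ATF4 arm (median log2 difference -0.18, against 0.01 over all genes), 7 higher and 1 lower of 15 in the endoplasmic reticulum arm (median 0.17) and 1 higher and 1 lower of 6 in the heat shock arm (median -0.08). DDIT4 fell by 2.59 ± 0.25 on the log2 scale (SE; adjusted p = 5.62e-05), CHAC1 by 2.49 ± 0.21 (2.94e-10) and ATF3 by 2.18 ± 0.28 (1.01e-06). These sizes rest in part on the batch term: fitted in batch 1 alone, which has only A12 at 72 h, DDIT4 fell by 2.08 ± 0.11, CHAC1 by 2.09 ± 0.24 and ATF3 by 1.54 ± 0.30, and 7 genes were higher and 12 lower. ASNS, which makes asparagine, fell by 1.43 ± 0.16 (1.87e-05); SESN2, a sestrin that restrains mTORC1, fell by 0.92 ± 0.10; and PHGDH, the first enzyme of serine synthesis, fell by 0.82 ± 0.08. PSAT1, SHMT2, TRIB3 and SLC7A11, which act in serine and one-carbon metabolism, in feedback on ATF4 and in cystine uptake, fell by 0.27 to 0.77. Not all of the arm went down: ATF5, a relative of ATF4, rose by 0.54 ± 0.09 and PPP1R15A (GADD34), which directs dephosphorylation of eIF2, by 0.27 ± 0.07. Here too the batch term adds to the sizes. In batch 1 alone ASNS was at -1.13, SLC7A11 at -0.21, ATF5 at 0.45 and PPP1R15A at 0.20. ATF4 itself was not called.

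In the endoplasmic reticulum arm, DNAJC3 (a co-chaperone that also inhibits PERK) rose by 0.59 ± 0.08 (adjusted p = 9.29e-07), CRELD2 by 0.47 ± 0.10, and HSPA5, HSP90B1, XBP1, MANF and SDF2L1 by 0.29 to 0.32. DNAJC3 stood at 52.0 and 59.7 CPM in KO before treatment, against 64.8 to 85.4 CPM in the 3 KO libraries in DMSO at 72 h, without overlap. XBP1 stood at 189 and 192 CPM before treatment and at 249 to 253 CPM at 72 h, with 249 CPM in A12 of batch 1. In batch 2 it was already at 247 CPM in A12 and 234 CPM in F4 at T0. Its change to 72 h was 0.37 ± 0.06 fitted in batch 1 alone and 0.08 ± 0.07 in batch 2 alone. HSP90B1, at 808 and 854 CPM before treatment, overlapped the batch 2 libraries at 72 h (815 and 868 CPM) and was below the batch 1 library (1055 CPM). SDF2L1 stood at 16.7 and 21.4 CPM before treatment and at 21.9 to 38.2 CPM at 72 h, with the lowest value in batch 1. At T0 in batch 2 it was at 27.7 CPM in A12 and 34.0 CPM in F4. EDEM1, which helps remove misfolded glycoproteins, went the other way, by -0.60 ± 0.11: 67.2 CPM in A12 and 99.3 CPM in F4 before treatment, then 54.1 CPM in A12 of batch 1. Fitted in batch 1 alone, its difference was -0.37. In the heat shock arm HSPH1 (HSP110) rose by 0.38 ± 0.06, from 224 and 239 CPM to 268 to 306 CPM. HSPB1 was called lower by 0.21 ± 0.07, at 112 CPM in A12 and 128 CPM in F4 before treatment and 93.8 CPM in A12 of batch 1 at 72 h. The batch 2 libraries at 72 h, at 177 and 213 CPM, were above all of these, and with the failed library the difference was 0.36.

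WT gave 11 genes higher and 12 lower at 72 h than before treatment, where 9.49% of all genes were higher and 9.41% lower. DDIT4 fell by 1.88 ± 0.25, CHAC1 by 1.25 ± 0.20, ATF3 by 1.13 ± 0.27 and ASNS by 0.64 ± 0.15. DNAJC3 rose by 0.56 ± 0.07, CRELD2 by 0.33 ± 0.09 and HSPH1 by 0.36 ± 0.06. The model fits the 2 WT libraries before treatment exactly, so these SEs and calls leave out the spread between them. CHAC1 stood there at 12.0 CPM in the library labelled A7 and 4.14 CPM in that labelled C4, and ASNS at 58.6 and 33.1 CPM. Without the library labelled A7, DDIT4 was at -1.35 (adjusted p = 0.0119), but CHAC1 at -0.48 (0.233), ASNS at -0.23 (0.451), ATF3 at -0.91 (0.0587) and CRELD2 at 0.29 (0.105) were not called. By arm, 2 were higher and 11 lower in the ATF4 arm, 8 higher and 1 lower in the endoplasmic reticulum arm and 1 higher in the heat shock arm. The library labelled A7 before treatment held the highest DDIT4, CHAC1 and ASNS of the 25 libraries: without it 9 genes were called, without the one labelled C4 23, and without C4 in DMSO at 72 h 15. With the failed library included the WT count was 6, and with no clone terms the counts were 13 in KO and 11 in WT.

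The difference from before treatment was still there at 264 h. In KO, 8 of the 42 genes were higher and 10 lower in DMSO at 264 h, where 4.74% of all genes were higher and 4.44% lower, and in WT 6 were higher and 10 lower, where 4.82% were higher and 4.80% lower. CHAC1 was lower by 1.96 ± 0.18 in KO and by 1.42 ± 0.20 in WT on the log2 scale, ATF3 by 1.94 ± 0.25 and 1.75 ± 0.29, and DDIT4 by 1.83 ± 0.23 and 1.65 ± 0.24. ASNS was lower by 1.22 ± 0.14 and 0.85 ± 0.15, and DNAJC3 was higher by 0.46 ± 0.07 and 0.44 ± 0.07. XBP1 was higher by 0.37 ± 0.06 in KO and 0.29 ± 0.06 in WT, and HSPH1 by 0.30 ± 0.06 and 0.27 ± 0.06. These values share the libraries before treatment with those for 72 h, and the WT SEs and calls again leave out the spread between the 2 WT ones. Without the KO library F4 before treatment the KO count was 11, and without the WT library labelled A7 the WT count was 2, without that labelled C4 20, and without WT A7 and C4 in DMSO at 264 h 10 and 8. ATF3 (-1.53, adjusted p = 0.00548) and DNAJC3 (0.37, 0.00984) were the 2 WT genes called without A7, where CHAC1 was at -0.66 (0.147), DDIT4 at -1.12 (0.0549), ASNS at -0.45 (0.174), XBP1 at 0.20 (0.107) and HSPH1 at 0.23 (0.0581). With no clone terms the counts were 5 in KO and 2 in WT, and with the failed library 6 and 4.

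**Figure D2:**
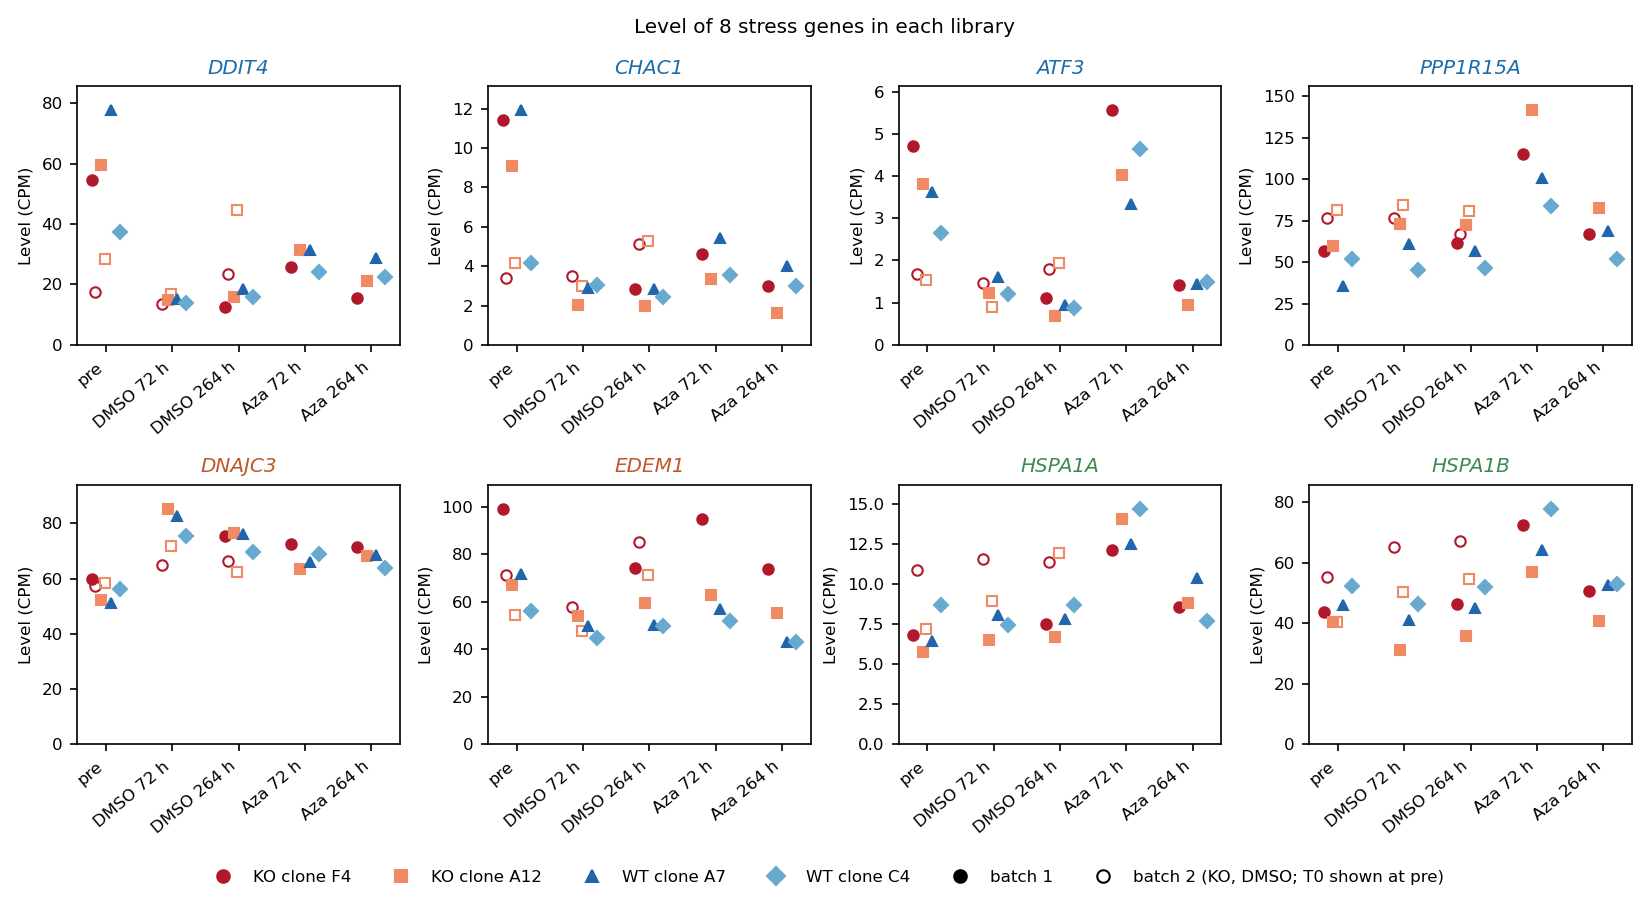
Level in CPM of 8 genes (panels, axes from 0) in each of the 25 libraries, by condition; shape and colour give the clone, and open symbols are batch 2, whose T0 libraries stand at the pre position. For DDIT4, CHAC1 and ATF3 the filled symbols at pre, other than WT C4 for CHAC1, stand above the open ones there, and for PPP1R15A, HSPA1A and HSPA1B the highest symbol of each clone is in Aza at 72 h.

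In batch 2 the falls from the first harvest to 72 h were smaller, and the shared model called none. At T0 in batch 2, DDIT4 was at 28.4 CPM in A12 and 17.3 CPM in F4, and at 72 h at 16.7 and 13.6 CPM. CHAC1 was at 4.15 and 3.38 CPM at T0 and at 2.97 and 3.50 CPM at 72 h, and ATF3 at 1.54 and 1.68 CPM and then at 0.895 and 1.47 CPM. All of these T0 values were below those of the same clones before treatment in batch 1. The log2 differences from T0 to 72 h were -0.35 ± 0.24 for DDIT4, -0.10 ± 0.20 for CHAC1, -0.17 ± 0.27 for ATF3 and -0.08 ± 0.15 for ASNS, with adjusted p from 0.544 to 0.865. Fitted in batch 2 alone, DDIT4 was called lower, by 0.54 ± 0.11 (adjusted p = 0.00146), and CHAC1 (-0.18 ± 0.19), ATF3 (-0.42 ± 0.28) and ASNS (-0.18 ± 0.10) were not called. Of the 42 genes, 5 were higher and none lower at 72 h, where 0.581% of all genes were higher and 0.804% lower. They were MANF (0.35 ± 0.07), HSPA5 (0.26 ± 0.06), DNAJC3 (0.26 ± 0.07), HSPH1 (0.21 ± 0.06) and ATF4 (0.21 ± 0.05), of which the first 4 are chaperones or secreted factors of the protein folding arms. At 264 h against T0, 8 were higher and none lower, where 2.79% of all genes were higher and 5.09% lower, with DNAJB9 (0.44 ± 0.13), HSPA1B (0.38 ± 0.07) and HERPUD1 (0.34 ± 0.07) the largest. Both counts were 0 with no clone terms or with the failed library, and 1 and 4 with the WT labels as given; at 72 h the count was also 0 without either T0 library, and 12 in the groups alone (10 higher, 2 lower). At 264 h it was 1 without F4 of batch 2 at 264 h, 5 without A12 there, 3 and 5 without F4 and A12 at T0, and 15 without F4 of batch 1 at 264 h, in batch 2 alone, with DESeq2 or with RLE size factors in edgeR.

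A test of the difference itself, added after the data had been seen, set the change from the first harvest to 72 h within batch 1 against that within batch 2, in KO, with the 72 h libraries of each batch as a group of their own (9 residual degrees of freedom). The batch 1 change has 1 library at 72 h, A12, which is taken to vary like the other libraries. It called 6 of 42 genes with a more negative change in batch 1 and none with a more positive one, where 0.125% and 0.0882% of all genes were called. CHAC1, at 9.10 and 11.4 CPM before treatment and 2.03 CPM at 72 h in batch 1 but 4.15 and 3.38 CPM and then 2.97 and 3.50 CPM in batch 2, differed by -2.00 ± 0.33 (adjusted p = 0.00153). DDIT4 differed by -1.60 ± 0.26 (0.0276), ASNS by -1.01 ± 0.20 (0.0391), PSAT1 by -0.67 ± 0.10 (0.000446), PHGDH by -0.59 ± 0.11 (0.0074) and HSPA1B by -0.54 ± 0.12 (0.0276). ATF3, at -1.17 ± 0.42, was not called (0.361). Of the 6 genes, 5 belonged to the ATF4 arm. Which of the ways in which the first harvests differed (label, batch, culture) goes with this cannot be told apart. The count was 0 with the WT labels as given, with the failed library or with no clone terms, and 4 without F4 of batch 2 at T0 or without F4 of batch 2 at 72 h. With 1 term for 72 h in both batches, which compares only the first harvests after the batch term, 14 genes were more negative and 2 more positive.

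**Figure D3:**
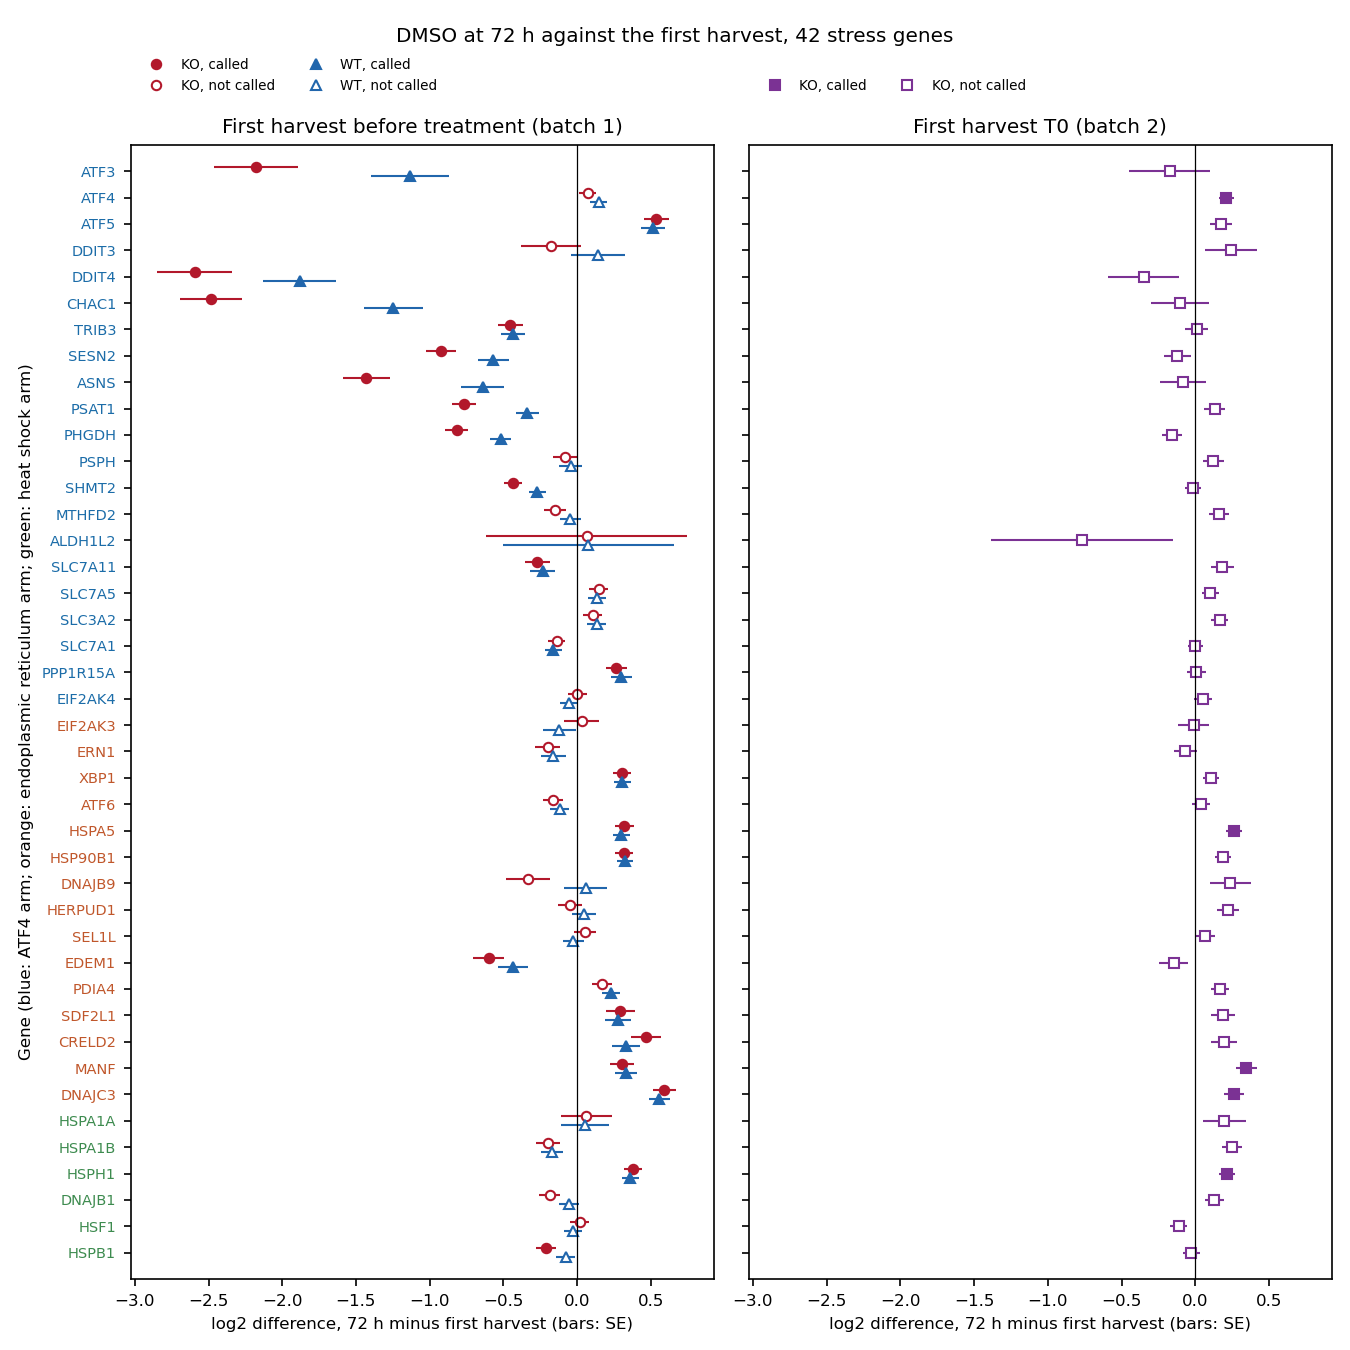
Log2 difference between DMSO at 72 h and the first harvest for 42 genes (rows), against the libraries before treatment of batch 1 (left; KO circles, WT triangles) and the T0 libraries of batch 2 (right; KO squares), from the shared model, in which both KO series use 1 term for 72 h, on 1 scale; bars are SE and filled symbols were called. On the left DDIT4 reaches -2.59 in KO, and on the right none of the 42 was called lower.

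Between 72 h and 264 h in DMSO, 7 of 42 genes rose and 2 fell in KO, where 5.08% of all genes rose and 4.04% fell. DDIT4 rose by 0.77 ± 0.20 (adjusted p = 0.0369), CHAC1 by 0.52 ± 0.17 (0.0406) and EDEM1 by 0.39 ± 0.08 (0.00392). PHGDH, SESN2, TRIB3 and SHMT2 rose by 0.17 to 0.28, SLC7A11 fell by 0.27 ± 0.06 and HSP90B1 by 0.18 ± 0.04. In batch 2 DDIT4 went from 16.7 to 44.5 CPM in A12 and from 13.6 to 23.3 CPM in F4, and in A12 of batch 1 from 14.9 to 15.8 CPM. PHGDH went from 79.0 to 94.4 CPM in A12 and from 80.8 to 106 CPM in F4 of batch 2, and from 57.7 to 64.8 CPM in A12 of batch 1. Fitted within batch 2 alone, 12 genes rose and 1 fell; within batch 1 alone none rose and 2 fell. No gene of the 42 was called in WT, where 0.171% of all genes were called and 9 of the 42 had an unadjusted p under 0.05; HSP90B1 (-0.19 ± 0.06) and HSPA5 (-0.18 ± 0.06) had adjusted p of 0.156 and 0.198. The WT count was 6, all lower, in the groups alone, and 1 in batch 1 alone. Without the A12 library of batch 2 at 72 h the KO count was 4, and without its libraries F4 and A12 at 264 h 5 and 3; it was 3 in the groups alone, 5 with the WT labels as given, 1 with the failed library and 0 with no clone terms.

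Aza at 72 h was set against DMSO at the same time. In KO, 17 of 42 genes were higher and 6 lower, where 13.0% of all genes were higher and 11.6% lower, and in WT 13 were higher and 7 lower, where 11.2% and 11.3% were. By arm in KO, 11 were higher and 3 lower of 21 in the ATF4 arm (median log2 difference 0.28, against -0.01 over all genes), 2 higher and 3 lower of 15 in the endoplasmic reticulum arm (median -0.04) and 4 higher of 6 in the heat shock arm (median 0.33). In WT the numbers were 10 and 3 (median 0.19), 0 and 4 (median -0.08) and 3 and 0 (median 0.16). Called higher in both genotypes were 13 genes and lower in both 5, and none was called in opposite directions. The DMSO libraries at 72 h also enter the comparison with the first harvest, and COL1A1, KRT8, TAL1 and KIT stood higher with Aza at 72 h, as given above; their part was not tested.

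PPP1R15A was at 142 CPM in A12 and 115 CPM in F4 with Aza, against 73.1 to 84.6 CPM in the 3 KO libraries in DMSO. In WT it was at 101 CPM in A7 and 84.1 CPM in C4 with Aza, against 61.0 and 45.2 CPM. No Aza library overlapped the DMSO libraries of its genotype, and the log2 difference was 0.87 ± 0.07 in KO (adjusted p = 5.49e-12) and 0.81 ± 0.07 in WT (1.86e-11). ATF3 was at 4.04 and 5.58 CPM in KO and at 3.34 and 4.64 CPM in WT with Aza, against 0.895 to 1.47 and 1.21 to 1.61 CPM in DMSO. It rose by 2.34 ± 0.28 in KO (a 5.07-fold difference, adjusted p = 4.44e-08) and by 1.49 ± 0.26 in WT (2.82-fold, 3.96e-05), again without overlap. DDIT4 was at 31.4 and 25.8 CPM in KO with Aza against 13.6 to 16.7 CPM in DMSO, and at 31.5 and 24.2 CPM in WT against 15.3 and 13.9 CPM. These levels lay below the 54.7 to 59.4 CPM of the same KO clones before treatment. The shared model put its rise at 1.58 ± 0.26 in KO (adjusted p = 0.00107) and 0.92 ± 0.26 in WT (0.0243). The KO value is larger than the ratio of any of these libraries, since it takes off the batch difference of DDIT4 (0.88 ± 0.20), while at 72 h the batches stood at 14.9 CPM and at 13.6 and 16.7 CPM. Fitted in batch 1 alone, DDIT4 rose in KO by 1.09 ± 0.11 (1.89e-09), ATF3 by 1.72 ± 0.30 (4.7e-05), CHAC1 by 0.72 ± 0.26 (0.0406) and PPP1R15A by 0.94 ± 0.08, and 15 genes were higher and 7 lower. CHAC1 rose by 1.11 ± 0.23 in KO and 0.59 ± 0.21 in WT, from 2.03 to 3.50 CPM and from 2.89 to 3.02 CPM in DMSO to 3.36 and 4.60 CPM and to 5.42 and 3.58 CPM; in KO the groups overlapped in CPM, with F4 of batch 2 in DMSO above A12 with Aza.

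Other genes of the arm moved less. SESN2 rose by 0.73 ± 0.10 in KO and 0.54 ± 0.11 in WT, and SLC3A2, the heavy chain of amino acid exchangers, by 0.43 ± 0.06 and 0.56 ± 0.06. MTHFD2, the mitochondrial folate enzyme, PHGDH and TRIB3 rose by 0.21 to 0.33 in both genotypes, and ATF4 by 0.20 ± 0.06 and 0.19 ± 0.05. With the failed library the direction in KO turned for TRIB3 (-0.03), PHGDH (-0.01) and ATF4 (-0.06). TRIB3 was at 38.2 CPM in A12 and 39.6 CPM in F4 with Aza, against 34.2 CPM in A12 of batch 1 and 42.4 and 46.9 CPM in batch 2, and was not called in batch 1 alone (0.18 ± 0.09, adjusted p = 0.176). ASNS rose in KO by 0.72 ± 0.17 (adjusted p = 0.00412) and was at 0.24 ± 0.15 in WT (0.291). Fitted in batch 1 alone, its rise in KO was 0.43. The last enzyme of serine synthesis, PSPH, fell by 0.47 ± 0.09 in KO and 0.38 ± 0.08 in WT, and EIF2AK4 fell by 0.27 ± 0.07 and 0.28 ± 0.06 (0.04 in KO with the failed library). SLC7A11 fell in KO by 0.32 ± 0.09 and PSAT1 in WT by 0.23 ± 0.08. DDIT3 (CHOP), the factor tied to cell death in prolonged stress, was at 2.23 to 4.05 CPM over all libraries and was called in neither genotype (0.28 ± 0.20 and -0.11 ± 0.19, adjusted p = 0.332 and 0.733).

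In the heat shock arm, HSPA1A (hg19 chromosome 6, 31783291 to 31785723) and HSPA1B (31795512 to 31798031) encode nearly identical HSP70 proteins, so how reads divide between the pair is uncertain. HSPA1A was at 14.1 and 12.2 CPM in KO with Aza, against 6.52 CPM in A12 of batch 1 and 8.95 and 11.6 CPM in batch 2 in DMSO. In WT it was at 12.5 and 14.7 CPM against 8.07 and 7.46 CPM. HSPA1B was at 56.9 CPM in A12 and 72.4 CPM in F4 with Aza, against 31.1 CPM in A12 of batch 1 and 50.5 and 65.2 CPM in A12 and F4 of batch 2. In WT it was at 64.2 and 78.0 CPM against 41.0 and 46.3 CPM. Each Aza library was above the DMSO libraries of the same clone for both genes, and across the KO clones HSPA1B overlapped, with F4 of batch 2 in DMSO above A12 with Aza. HSPA1A rose by 1.01 ± 0.16 in KO (adjusted p = 1.92e-05) and 0.81 ± 0.16 in WT (0.000196), and HSPA1B by 0.81 ± 0.08 and 0.70 ± 0.07. DNAJB1, the HSP40 partner of these chaperones, rose by 0.43 ± 0.07 and 0.26 ± 0.07, with 101 and 88.4 CPM in KO and 91.7 and 98.2 CPM in WT with Aza against 78.2 to 83.8 and 76.8 to 81.9 CPM in DMSO. HSPB1 was called higher in KO by 0.23 ± 0.07, at 107 CPM in A12 and 138 CPM in F4 with Aza against 93.8 CPM in A12 of batch 1 in DMSO. Its batch 2 libraries in DMSO, at 177 and 213 CPM, were above both Aza libraries. Fitted in batch 1 alone the difference was 0.28 ± 0.07, but including the failed library turned it to -0.33. HSF1 and HSPH1 were not called.

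In the endoplasmic reticulum arm, 10 of 15 genes in KO and 11 in WT were not called. Most of all genes tested were not called either. Of these, 13.0% were higher and 11.6% lower in KO, and 11.2% and 11.3% in WT. ATF6 fell by 0.29 ± 0.07 in KO and 0.31 ± 0.07 in WT: it was at 50.4 to 55.2 CPM in the 4 Aza libraries and at 56.1 to 67.7 CPM in the 5 DMSO libraries. PDIA4, a disulfide isomerase, fell by 0.24 ± 0.07 and 0.24 ± 0.06, from 100.3 to 116 CPM over the KO and WT libraries in DMSO to 81.9 to 97.4 CPM with Aza. DNAJC3 fell by 0.31 ± 0.08 and 0.23 ± 0.07; in A12 of batch 1 it was at 63.6 CPM with Aza and 85.4 CPM in DMSO. HSPA5 fell by 0.16 ± 0.06 in WT. Rises were called in KO for DNAJB9 (0.57 ± 0.15) and EDEM1 (0.52 ± 0.11), with 0.16 ± 0.15 and 0.21 ± 0.10 in WT (adjusted p = 0.487 and 0.176). In batch 1 alone they were at 0.40 ± 0.17 (0.0959) and 0.30 ± 0.08 (0.00735) in KO. DNAJB9 was at 12.2 and 13.4 CPM with Aza against 8.66 to 10.5 CPM in DMSO in KO, and at 9.14 and 11.7 CPM against 9.04 and 9.60 CPM in WT. EDEM1 was at 62.8 CPM in A12 and 95.1 CPM in F4 with Aza, against 47.6 to 57.8 CPM in DMSO; WT values were 56.9 and 51.8 CPM against 49.7 and 44.5 CPM.

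No difference between genotypes in the response was called: the Aza effect in KO minus that in WT was called for none of the 42 genes at 72 h and none at 264 h, where 0% of all genes were called by edgeR at either time. Unadjusted p was under 0.05 for 3 of the 42 genes at each time, and DESeq2 called none of the 42. At 72 h the difference was 0.85 ± 0.40 for ATF3, 0.66 ± 0.37 for DDIT4, 0.48 ± 0.22 for ASNS and 0.32 ± 0.15 for EDEM1 (adjusted p 0.962 to 0.980). The KO side of these differences draws on the batch term. Fitted in batch 1 alone, the Aza effects in KO were 1.72, 1.09, 0.43 and 0.30 for the same genes. Each of these was below the KO value of the shared model. How far the differences rest on the batch term was not tested. The KO fit at 72 h has no batch 1 DMSO library of F4, and F4 enters through batch 2 and the batch term. The KO count of 17 higher and 6 lower was 9 and 4 in the groups alone, 9 and 2 with no clone terms, and 8 and 2 with the failed library; without A12 in DMSO at 72 h of batch 1, 1 gene was called for the difference between genotypes. The WT count of 20 was 9 to 12 when any 1 of the 4 WT libraries was left out (A7 or C4, Aza or DMSO), 10 with no clone terms and 4 with the failed library.

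**Figure D4:**
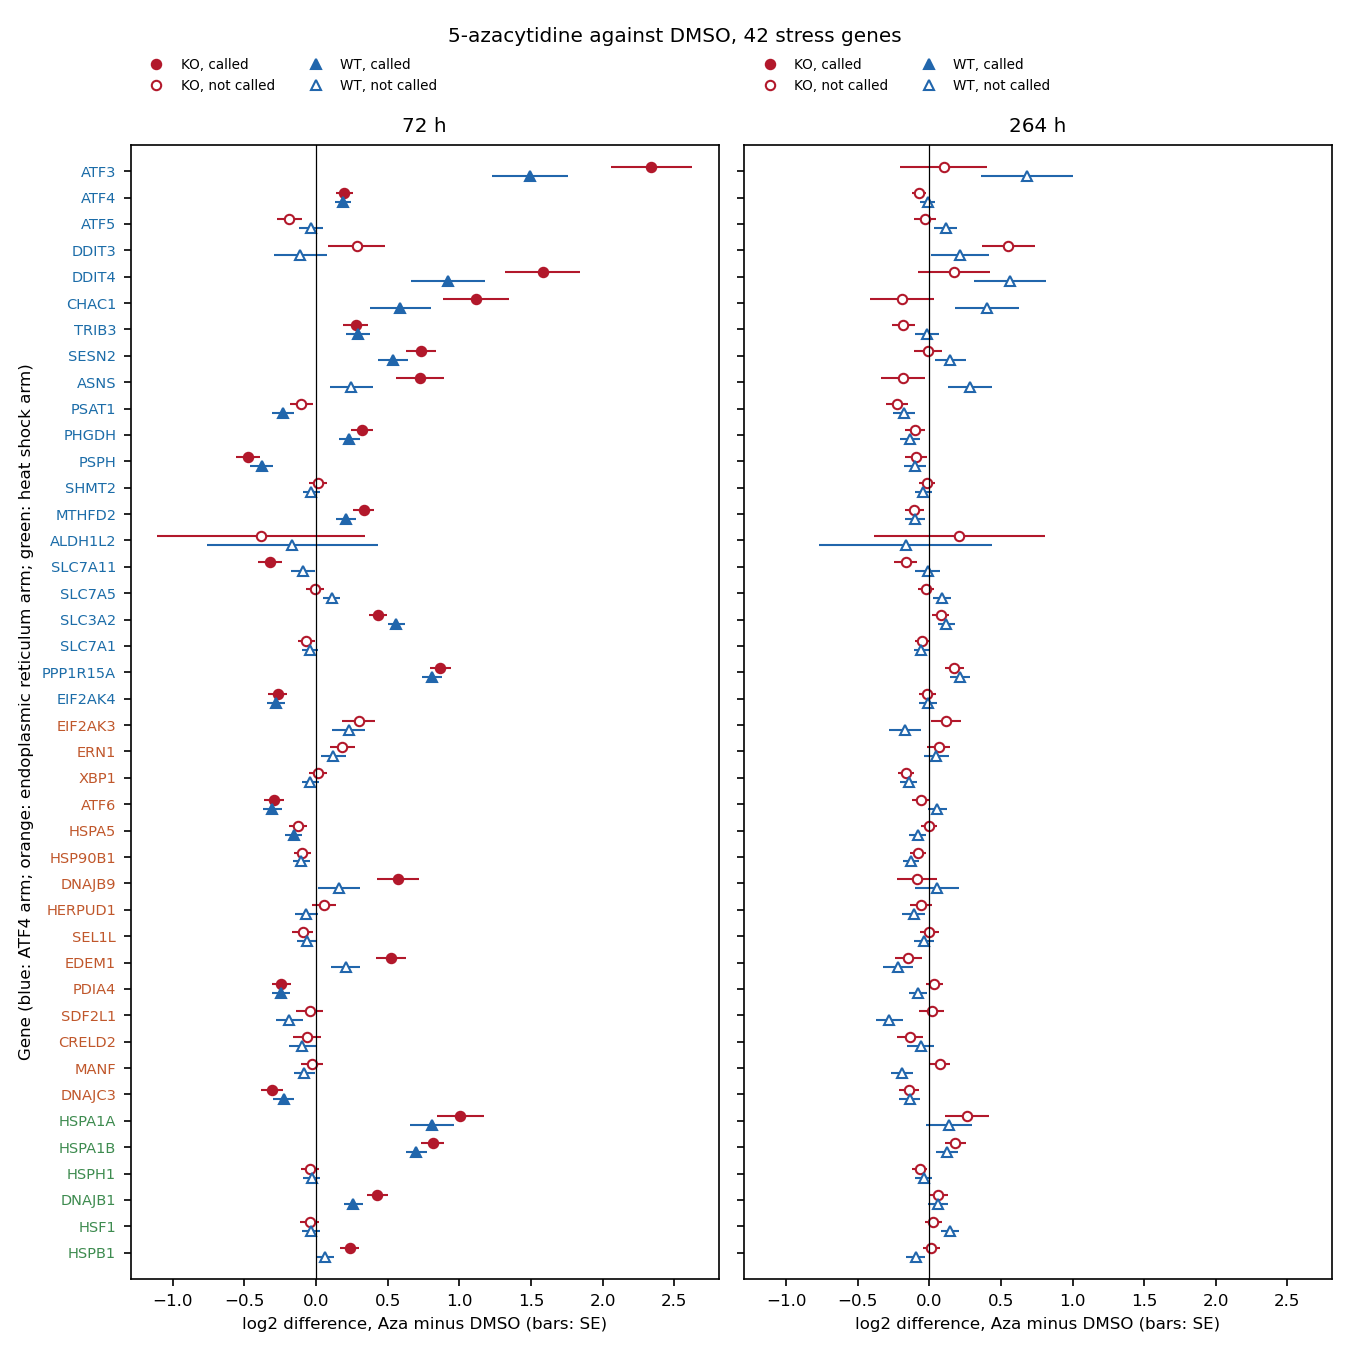
Log2 difference between Aza and DMSO for 42 genes (rows) at 72 h (left) and 264 h (right) on 1 scale, in KO (circles) and WT (triangles); bars are SE and filled symbols were called. At 72 h ATF3 reaches 2.34 in KO and 1.49 in WT, and at 264 h no symbol is filled.

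By 264 h none of the 42 genes was called in either genotype, where 0.482% of all genes were called in KO and 1.93% in WT. Unadjusted p was under 0.05 for 8 genes in KO and 9 in WT, and DESeq2 called none. PPP1R15A was at 82.6 and 66.8 CPM with Aza in KO against 61.6 to 80.7 CPM in DMSO (0.17 ± 0.06, adjusted p = 0.335), and at 0.22 ± 0.07 in WT (0.130). HSPA1A was at 0.26 ± 0.15 in KO (0.633) and DDIT3 at 0.55 ± 0.18 (0.251); in WT, ATF3 was at 0.68 ± 0.32 (0.429) and DDIT4 at 0.56 ± 0.25 (0.454). The count was 10 in WT with the 2 groups alone (5 in each direction) and 2 in batch 1 alone, and 1 in KO in batch 1 alone, with no low count filter or without F4 with Aza.

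KO and WT did not differ detectably in these genes within any condition, at 2 libraries per genotype. No member was called before treatment, with DMSO at 264 h, or with Aza at either time, where 0.0543%, 0.208%, 0.190% and 0.0488% of all genes were called; unadjusted p was under 0.05 for 3, 6, 4 and 7 of them. SESN2 was higher in KO by 0.54 ± 0.21, 0.45 ± 0.14, 0.41 ± 0.11 and 0.36 ± 0.13 in these 4 conditions (adjusted p from 0.258 to 0.582). EDEM1 was at 0.43 ± 0.12 with DMSO and 0.58 ± 0.14 with Aza, both at 264 h (0.261 and 0.203). PPP1R15A was at 0.43 ± 0.18 before treatment and 0.48 ± 0.14 in Aza at 72 h (0.625 and 0.312). Without a low count filter 4, 4, 2 and 4 genes were called; DESeq2 called 2 in Aza at 264 h and none in the other conditions. Without the F4 library 1 gene was called with DMSO, 2 with Aza at 72 h and 3 with Aza at 264 h, and without A12 1 with Aza at 264 h. Before treatment no gene was called without either of the 2 WT libraries. DMSO at 72 h has 1 KO library in batch 1 and was not compared.

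Clones of 1 genotype were then compared. Over all conditions, 9 of the 42 genes were higher and 6 lower in F4 than in A12, where 17.3% of all genes were higher and 18.7% lower, a share near the background. SLC7A11, the cystine transporter, was lower in F4 by 0.65 ± 0.04 (adjusted p = 4.84e-15), at 49.6 against 72.4 CPM before treatment and 23.1 against 41.0 CPM in batch 2 at 264 h; its partner SLC3A2 was lower by 0.27 ± 0.03. DDIT4 was lower in F4 by 0.51 ± 0.13, and EDEM1, HSPA1B, CRELD2 and SDF2L1 were higher by 0.29 to 0.37. In WT, 6 genes were higher and 1 lower in A7 than in C4 after treatment, where 5.47% and 6.38% of all genes were; PPP1R15A was higher by 0.35 ± 0.05 and ATF5 by 0.28 ± 0.06. That WT count was 4 without any 1 of the WT libraries A7 or C4 at 72 h or C4 with Aza at 264 h, 11 in batch 1 alone, 1 with the failed library and 0 with the labels before treatment as given. Batch 2 stood higher than batch 1, in KO in DMSO at 72 h and 264 h, for 25 of the 42 genes and lower for 5, where 19.3% and 15.7% of all genes were. Among the largest were CHAC1 (0.92 ± 0.17), HSPB1 (0.90 ± 0.05), DDIT4 (0.88 ± 0.20), HSPA1A (0.67 ± 0.12), HSPA1B (0.63 ± 0.06) and SDF2L1 (0.59 ± 0.07), and SLC7A11 was lower by 0.42 ± 0.06. HSPB1 was at 177 to 232 CPM in the 6 batch 2 libraries and at 93.8 to 138 CPM in the other 19, without overlap; KRT18 was at 162 to 207 CPM in batch 2 and 92.5 to 173 CPM in batch 1, with overlap, and its part in this was not tested. With no clone terms the batch count was 16 and with the failed library 3. All 3 comparisons of this paragraph were added after the data had been seen.

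Other genes of the 3 pathways, 92 in number and all found in the table, were read from separate lists. Between the harvest before treatment and DMSO at 72 h, 20 of 40 other ATF4 genes fell and 1 rose in KO, and 15 fell and 1 rose in WT, where 9.34% of all genes fell and 7.97% rose in KO and 9.41% and 9.49% in WT. The largest falls in KO were CBS (-1.35 ± 0.12) and CTH (-1.30 ± 0.11), which make cysteine by transsulfuration, and PCK2 (-1.14 ± 0.11), the mitochondrial PEPCK; in WT they were -0.94 ± 0.12, -0.73 ± 0.11 and -0.77 ± 0.10. Of 29 other endoplasmic reticulum genes, 9 rose and 1 fell in KO and 7 rose and 1 fell in WT. DERL2 rose by 0.43 ± 0.09 and 0.37 ± 0.08 and DNAJB11 by 0.39 ± 0.06 and 0.37 ± 0.06, whereas ERO1B fell by 0.42 ± 0.10 in WT. Of 21 other heat shock genes, 9 rose in KO and 10 rose and 2 fell in WT. HSP90AA1 rose by 0.58 ± 0.06 in both and HSPE1 by 0.42 ± 0.08 and 0.55 ± 0.07. In batch 2 no other ATF4 gene was called between T0 and 72 h, and the change in batch 1 was called more negative than that in batch 2 for 7 of 40, CTH (-0.94 ± 0.16), CBS (-0.72 ± 0.13) and PCK2 (-0.70 ± 0.13) among them, where 0.125% of all genes were.

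With Aza at 72 h, 12 of the 40 other ATF4 genes rose and 8 fell in KO, and 10 rose and 8 fell in WT, where 13.0% of all genes rose and 11.6% fell in KO and 11.2% and 11.3% in WT. KLHL24 rose by 0.96 ± 0.14 and 0.58 ± 0.13, SLC6A9, a glycine transporter, by 1.35 ± 0.34 in WT, and SLC1A4, a neutral amino acid transporter, by 0.68 ± 0.10 in KO, whereas BCAT1, which transaminates branched-chain amino acids, fell by 0.74 ± 0.08 and 0.74 ± 0.07. Of the 29 endoplasmic reticulum genes, 6 rose and 3 fell in KO and 5 rose and 2 fell in WT; DERL3 rose by 1.08 ± 0.29 and 0.96 ± 0.25 and WFS1 by 0.97 ± 0.26 in WT. Of the 21 heat shock genes, 4 rose and 2 fell in KO and 1 rose and 1 fell in WT. BAG3, a co-chaperone of HSP70, rose by 0.41 ± 0.08 in KO and 0.45 ± 0.08 in WT, and HSPA6, a strictly inducible HSP70, by 0.86 ± 0.22 in KO. Reads per library were few for DERL3 (16 to 99), WFS1 (23 to 135), HSPA6 (37 to 127) and, in some libraries, SLC6A9 (0 to 253). At 72 h the Aza effect in KO minus that in WT was called for none of the 40, 29 and 21 genes of these lists, where 0% of all genes were. A value given here for 1 genotype alone is therefore not a called difference between genotypes. At 264 h none of the 90 tested genes of these lists was called in either genotype.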

How the data were processed

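Gene counts of 26 libraries were used as deposited: per the file headers, the authors counted paired-end reads over exons of GENCODE release 19 (hg19) with featureCounts 1.6.2 and no strand option, so that overlapping and antisense genes cannot be told apart. Cutadapt, FastQC, STAR 2.6.1d and DESeq2 are named in the submitters' processing notes. The library that the labels mark as failing quality control was left out, which left 25.

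CPM used TMM library sizes. Tests were edgeR 4.0.16 quasi-likelihood tests (R 4.3.3, robust, filterByExpr) with Benjamini-Hochberg adjustment over all genes tested, and genes were called at an adjusted p under 0.05. A shared model of the 25 libraries in 11 groups (15 terms, 10 residual degrees of freedom, 19275 genes) held clone, batch and a separate clone term for the WT libraries before treatment. Clone names pair libraries: the clone difference correlated at 0.519 to 0.615 between KO conditions. KO was set against WT in 4 batch 1 libraries per condition, with no covariate. Replicates were not duplicates (lowest chi-square per degree of freedom 12.3 over 18 pairs). The test of the change between batches gave the 72 h libraries of each batch a term of their own. The procedure was tested on simulated data.

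The members, lists and comparisons were chosen with earlier results of these data known, and 4 of 22 comparisons were added after these data had been seen. The text gives values for the called genes with the largest differences of each arm (up to 6, 5 and 4), and of each other list up to 3; some genes are not reported here. Alternatives were RLE size factors, no filter, DESeq2 1.42.0, no clone terms, the WT labels as given, the groups or a batch alone, the failed library included, and each library left out. A count of 0 allows up to 3 reads. RefSeq promoters are on GRCh38.p14, and no coordinate was converted.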

Additional observations from a re-analysis of the deposited data

Results flagged for a closer look

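The change from the first harvest to DMSO at 72 h differed between batch 1 and batch 2 in KO, by edgeR's test of the difference between changes within each batch, for 6 of 42 genes. The log2 values, batch 1 minus batch 2, were -2.00 for CHAC1, -1.60 for DDIT4, -1.01 for ASNS, -0.67 for PSAT1 and -0.59 for PHGDH in the ATF4 arm, and -0.54 for HSPA1B. Batch 1 has a single KO library at 72 h, and no gene was called with the failed library, with no clone terms or with the WT labels as given. No library stood apart in any of the 43 genes in the only group of 4 libraries, KO in DMSO at 264 h, by a rule that chance meets in about 1 of 20 groups. These are 2 clones in 2 batches, and differences between clones or batches widen the range that the rule divides by. It can therefore hardly flag 1 library: DDIT4 in A12 of batch 2, at 44.5 CPM against 12.4 to 23.3 CPM in the rest, was not flagged.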

How the results depend on the processing

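Counts below are of the 42 genes called. With no clone terms, that is without the replicate block, Aza at 72 h gave 11 in KO and 10 in WT; DMSO at 72 h against before treatment 13 and 11; DMSO at 264 h against before treatment 5 and 2; batch 2 against batch 1 16; and DMSO at 264 h against 72 h in KO, both batch 2 changes and the difference between batches 0. Without the block the interaction, Aza at 264 h and WT DMSO at 264 h against 72 h also stayed at 0. The cause was not tested. With the failed library, the counts were 10 and 4 for Aza at 72 h in KO and WT, 1 for DMSO at 264 h against 72 h in KO, 6 for DMSO at 72 h against before treatment in WT, 6 and 4 at 264 h, 0 for both batch 2 changes and the difference between batches, 1 for A7 against C4 and 3 for batch 2 against batch 1. With the WT labels before treatment as given they were 5 for DMSO at 264 h against 72 h in KO, 1 and 4 for the batch 2 changes and 0 for the difference between batches and for A7 against C4. In the groups alone they were 13 for Aza at 72 h in KO, 10 for Aza at 264 h in WT, 3 and 6 for DMSO at 264 h against 72 h in KO and WT, and 12 and 17 for the batch 2 changes; this could not be fitted for WT DMSO against before treatment. The difference between batches gave 16 with 1 term for 72 h in both batches. In batch 1 alone they were 1 and 2 for Aza at 264 h in KO and WT, 2 and 1 for DMSO at 264 h against 72 h, and 11 for A7 against C4, and in batch 2 alone 15 for the change to 264 h. That change gave 15 with RLE size factors, 15 with DESeq2 and 17 with no filter. With no filter, Aza at 264 h in KO gave 1 and KO against WT 4, 4, 2 and 4 in the 4 conditions; DESeq2 gave 2 for KO against WT in Aza at 264 h.

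With 1 library left out, the counts ran from 18 to 23 for Aza at 72 h in KO, 9 to 12 in WT, 0 to 1 for Aza at 264 h in KO and for the interaction at 72 h, and 3 to 13 for DMSO at 264 h against 72 h in KO. They ran from 19 to 22 (KO) and 9 to 23 (WT) for DMSO at 72 h against before treatment, 11 to 18 and 2 to 20 at 264 h, 0 to 6 and 1 to 15 for the batch 2 changes, 4 to 5 for the difference between batches, 12 to 20 for F4 against A12, 4 to 6 for A7 against C4 and 21 to 29 for batch 2 against batch 1. For KO against WT they ran from 0 to 1 in DMSO at 264 h, 0 to 2 in Aza at 72 h and 0 to 3 in Aza at 264 h.

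Of single-gene values recomputed under the alternatives, 2378 kept their direction and side of the threshold, 631 kept only their direction and lost the call, 22 gained it and 22 changed sign. With the failed library these were, for Aza at 72 h in KO, ATF4 -0.064, DDIT3 -0.049, TRIB3 -0.031, PHGDH -0.013, EIF2AK4 0.040 and HSPB1 -0.330, then HSPB1 0.358 for DMSO at 72 h against before treatment in KO, CHAC1 0.025 and ASNS 0.045 for batch 2 at 72 h against T0, HSPA1B 0.043 for the difference between batches, and SEL1L 0.037, CRELD2 -0.069 and MANF -0.073 for batch 2 against batch 1. CHAC1 was at -0.006 for DMSO at 264 h against 72 h in batch 1 alone. With 1 library left out, DNAJB9 ran from -0.057 (without WT C4 with Aza) to 0.359 for Aza at 72 h in WT. Against before treatment in WT, SLC7A11 ran from -0.498 to 0.013 at 72 h, and ATF5 from -0.164 to 0.733 and PPP1R15A from -0.016 to 0.514 at 264 h, each changing sign without the library labelled A7. In batch 2 at 72 h against T0, ATF3 ran from -0.427 to 0.092 (without A12 at 72 h), CHAC1 from -0.385 to 0.199 (without A12 at T0) and ASNS from -0.198 to 0.105 (without F4 at 72 h), with ASNS at 0.063 without A12 at T0. Depth limits ATF3, CHAC1, ALDH1L2 and NUPR1, whose lowest libraries held 18, 43, 1 and 0 reads. In the other lists it limits DERL3, WFS1, HSPA6 and SLC6A9, with 16, 23, 37 and 0 reads.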
